A study of Mus musculus with 36 samples.

Results

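Mitochondrial ribosomal proteins build the ribosome inside mitochondria, and 76 of their genes could be followed here, out of 18193 genes named on the arrays. The members were the genes whose only platform symbol begins with Mrpl or Mrps and a digit, each represented by its brightest probe set over 36 arrays. Levels were measured in the forebrain of 18 Cnp – eGFP-L10a mice on a C57BL/6 background, in which the promoter of Cnp, a myelin enzyme gene of oligodendrocytes, drives a GFP-tagged ribosomal protein L10a. Pulling down the tag gave a bound array (messages on tagged ribosomes of oligodendrocytes) and an unbound array (what was left, from neurons and other glia) for each animal. All animals carried the transgene, and no age is stated in the labels. There were 6 animals in each of 3 states, with no animal in more than 1 state. Sleep animals had been asleep for 75% or more of the last 6 to 7 h and died in the light phase, around 3 to 5 pm. Waking animals had been awake for 70% or more of that window and died in the dark phase, around 3 to 5 am. Sleep deprived animals, after a dark phase spent mostly awake, were held awake in the light for 4 h by objects new to them. Time of day thus separates the sleep and waking groups too. It also separates the waking animals from the sleep deprived ones, whose deprivation took place in the light.

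The mitochondrial ribosome translates the few proteins that mitochondrial DNA encodes, which are core subunits of oxidative phosphorylation. Its RNA comes from mitochondrial DNA, but its proteins are encoded in the nucleus, made on cytosolic ribosomes and imported, so the messages measured here are read by the cytosolic ribosomes that the tag captures. Some of the proteins descend from bacterial ribosomal proteins and others exist only in mitochondria. Mature oligodendrocytes, which wrap axons in myelin, are known for strong glycolysis and for passing lactate to axons.

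Of the members, 49 belong to the large subunit, counting Mrps30 and Mrps18a, which sit there in spite of their symbols, and 26 to the small subunit. The product of Mrps36 is now placed in the 2-oxoglutarate dehydrogenase complex and was kept apart. In the assignment used, 47 members have a bacterial counterpart and 28 are specific to mitochondria. Mrpl30 and Mrpl53 lay only on probe sets that name a further gene and were left out. All 76 members reached the expression filter in both fractions, and 13924 genes were tested in all. Values are log2 signals, so that a difference of 1 log2 unit means double the signal. Calls required an adjusted p (Benjamini-Hochberg, over every gene tested) below 0.05.

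The fractions were as labelled: 7 of 7 oligodendrocyte markers were higher in the bound arrays (median difference 2.39 log2), and 8 of 8 neuron, 6 of 6 astrocyte, 6 of 6 microglia, 4 of 4 vascular and 2 of 2 red blood cell markers were lower. No 2 arrays were identical, and arrays of a group correlated by 0.970 to 0.989. By sex-linked genes 3 animals stood apart, waking replicates 3 and 5 and sleep deprived replicate 11, whose Y-linked genes averaged 3.19 to 3.53 log2 in the unbound arrays against 7.73 to 8.53 in the other animals. Results that change without these animals are given both ways. The median gene tested also differed between the unbound states: it lay at 8.18 to 8.24 log2 in sleep, at 8.07 to 8.15 in waking and at 8.22 to 8.23 in sleep deprived arrays. Whether each group was normalized alone is not stated in the labels, and every comparison between states crosses groups. The fractions were not on 1 scale either: the mean over all probe sets was 5.91 to 5.94 log2 on bound and 6.33 to 6.42 on unbound arrays. Bound against unbound differences by the deposited signals carry this offset. In such bulk samples, fewer cells of a type and less RNA per cell cannot be told apart.

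Between the fractions, mitochondrial ribosomal protein genes were split and their differences were small. Against the unbound array of the same animal, 20 members were higher and 31 lower in the bound array, and 25 were not called. That is 67.1% called, where 83.6% of all genes tested were called, 25.5% higher and 58.1% lower. The members' differences ran from −0.84 to 0.79 with a median of −0.11, while the median of all genes was −0.35. Thus 63 of 76 members lay above the median gene. With each array centred on the median of the genes tested, 47 members were higher and 7 lower, where the same test called 40.5% of all genes higher and 39.9% lower. The 2 scalings ask different questions: by the deposited signals more members were lower in oligodendrocyte messages, and relative to the median gene more were higher.

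The distance to the median gene moved with signal level and with scaling. The 38 members in the middle of the set by brightness had mean levels between 9.12 and 10.42 log2, and the 2367 genes of that level, a reference chosen after the values were seen, had a median difference of −0.17. Those 38 members also had a median of −0.17, and 45 of 76 members lay above that value. After quantile normalization over all 36 arrays the members' median was 0.10, and that of all genes moved from −0.35 to 0.08. There 40 of 76 members lay above the median gene, and the split turned to 34 higher and 11 lower. The median gene turned as well, and the share of all genes called there is not given. A filter at the 60th percentile brought the distance from 0.25 to 0.12 log2. In each of the 18 animals taken alone the members' median difference lay above that of all genes, by 0.09 to 0.51 log2. All of these pairs share the scaling and the signal levels described above, so their agreement says nothing about either.

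**Figure D1:**
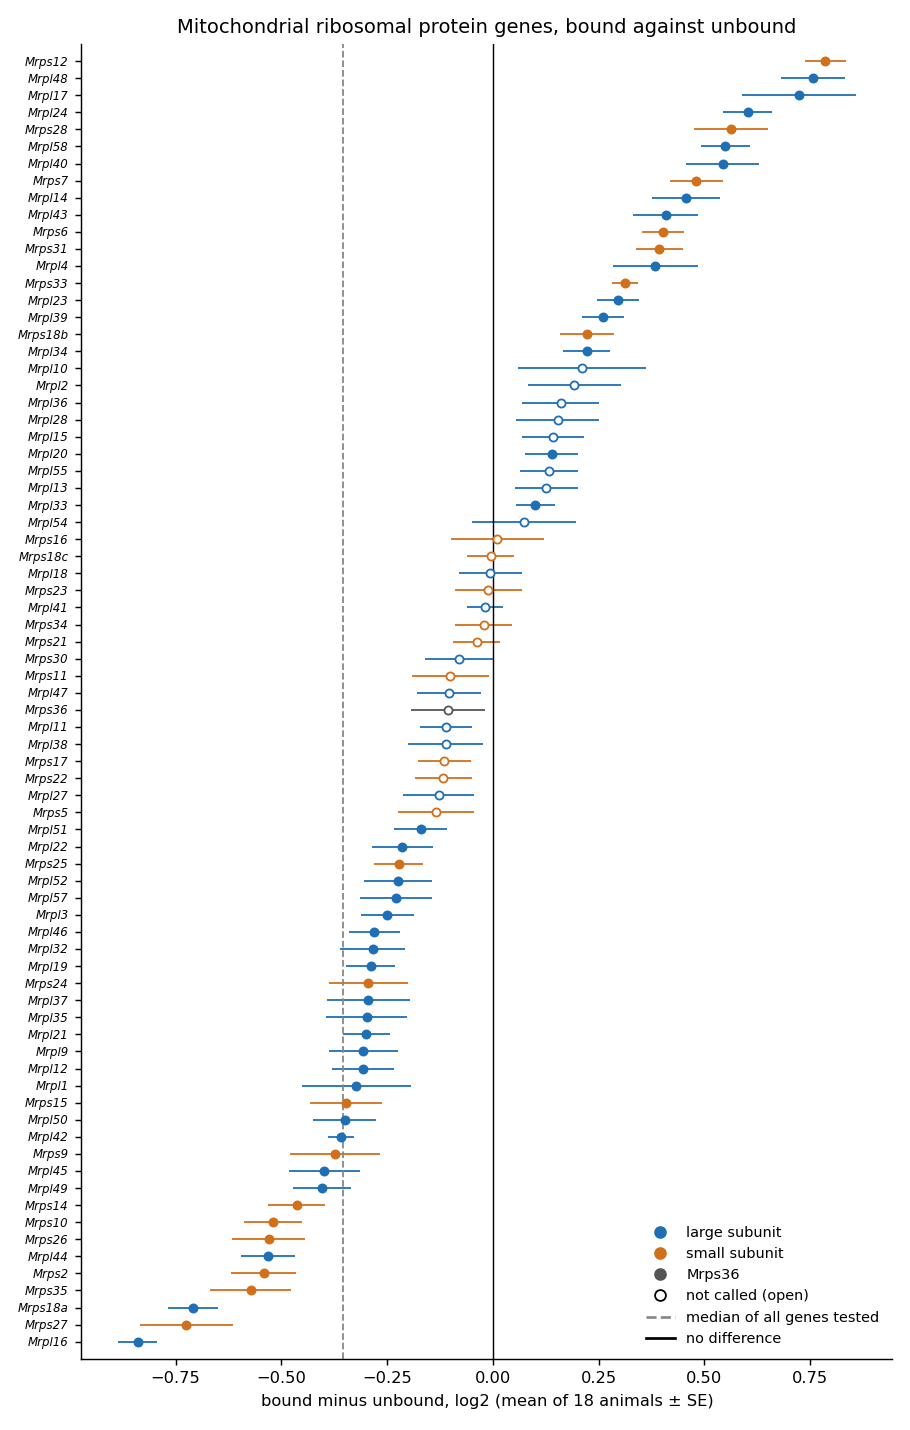
Bound minus unbound difference in log2 (x axis) for each of the 76 members (y axis), as the mean of 18 animals with its standard error, filled where called and coloured by subunit. The members spread from −0.84 for Mrpl16 to 0.79 for Mrps12, and the dashed line marks the median of all genes tested at −0.35.

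Members of both subunits were called on both sides, as were genes in general, of which 25.5% were higher and 58.1% lower. In the large subunit 13 of 49 members were higher and 21 lower, with a median of −0.10, and in the small subunit 7 of 26 were higher and 10 lower, with a median of −0.11. Above the median gene lay 43 of the 49 and 19 of the 26, a difference between subunits that was not tested. Of the members with a bacterial counterpart 13 of 47 were higher and 17 lower (median −0.04), and of those specific to mitochondria 7 of 28 were higher and 14 lower (median −0.14). Just 11 members moved the same way in all 18 animals, 5 up and 6 down, where 43.6% of all genes did. In 2 members, Mrpl16 and Mrpl48, the 18 bound and the 18 unbound arrays did not overlap. The share of all genes without such overlap is not given, so this count is not read as many or few.

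The promoters of 4 members are shown because they belong to the called members with the highest and lowest differences among those that have 1 listed start in the RefSeq table (build GRCm38.p6), which holds 67 of the 76 members. Each runs 5′ to 3′ up to the base before the start, and stops early where a neighbouring gene starts on the other strand. Mrps12 lies at chr7:28741822-28741967 (minus strand), Mrpl17 at chr7:105811088-105811337 (minus strand), Mrpl16 at chr19:11770165-11770414 (plus strand) and Mrps27 at chr13:99344679-99344785 (plus strand). Capitals mark matches to the NRF1 motif (GCGCA and GCGC with 1 base between them) or the ETS motif (CCGGAAG), searched on both strands.
Mrps12: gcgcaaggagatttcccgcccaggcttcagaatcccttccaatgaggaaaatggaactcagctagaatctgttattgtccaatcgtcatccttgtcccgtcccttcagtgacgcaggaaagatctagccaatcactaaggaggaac
Mrpl17: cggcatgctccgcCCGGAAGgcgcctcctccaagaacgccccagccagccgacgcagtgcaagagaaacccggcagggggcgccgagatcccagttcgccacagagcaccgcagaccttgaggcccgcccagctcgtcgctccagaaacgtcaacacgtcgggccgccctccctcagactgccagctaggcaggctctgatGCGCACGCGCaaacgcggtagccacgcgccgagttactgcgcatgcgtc
Mrpl16: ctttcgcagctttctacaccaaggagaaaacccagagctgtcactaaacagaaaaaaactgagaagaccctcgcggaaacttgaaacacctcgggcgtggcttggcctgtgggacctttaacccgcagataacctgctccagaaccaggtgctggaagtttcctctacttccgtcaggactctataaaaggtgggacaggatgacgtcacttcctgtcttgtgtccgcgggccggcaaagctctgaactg
Mrps27: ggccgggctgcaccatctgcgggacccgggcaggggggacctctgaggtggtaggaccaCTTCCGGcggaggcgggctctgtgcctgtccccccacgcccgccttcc
The windows shown for Mrpl17 and Mrps27 hold NRF1 or ETS matches, and those for Mrps12 and Mrpl16 hold none of these, so such a match stood on both sides of the split.

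NRF1 and the ETS factor GABP are known regulators of nuclear genes for mitochondria. In the 250 bases before the start, the NRF1 motif was found in 9 of 67 members (13.4%, against 8.43% of tested genes) and the ETS motif in 17 (25.4%, against 13.7%). The YY1 motif AAGATGG was found in 6 (8.96%, against 5.04%), among them Mrps12, where it lies outside the shortened stretch shown. At least 1 of the 3 was in 29 members (43.3%), against 24.4% of tested genes and 15.8% of all genes in the table. These counts were not tested. Of the 17 members with the ETS motif 5 were higher and 7 lower in the bound arrays (median −0.12), and of the 50 without it 13 were higher and 22 lower (median −0.11). Of the 9 with the NRF1 motif 2 were higher and 6 lower (median −0.28), and of the 58 without it 16 were higher and 23 lower (median −0.11). Of the 6 with the YY1 motif 1 was higher and 3 lower (median −0.16), and of the 61 without it 17 were higher and 26 lower (median −0.11).

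Among the members higher in oligodendrocyte messages, Mrps12, which encodes a protein of the decoding centre, led. Its signal was 10.28, 10.76 and 11.03 log2 (lowest, median and highest of 18) in the bound arrays and 9.71, 10.04 and 10.31 in the unbound. The bound array was the higher one in each of the 18 animals, although the ranges overlap slightly. The difference was 0.79 ± 0.05 (SE, n = 18 animals, adjusted p = 6.03e-12). Mrpl48, a mitochondria-specific protein of the large subunit, gave 11.38, 11.60 and 11.89 in the bound and 9.94, 10.93 and 11.20 in the unbound arrays. These ranges do not overlap, and the difference was 0.76 ± 0.08 (adjusted p = 9.24e-09). Its 2 further probe sets stood at 0.48 ± 0.07 and −0.88 ± 0.12, and the mean of its probe sets gave 0.12 (adjusted p = 0.0881).

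Mrpl17, whose bacterial counterpart lies near the exit tunnel, ran 10.24, 10.87 and 12.52 in the bound and 9.46, 10.21 and 10.74 in the unbound arrays. The bound array was higher in 15 of 18 animals, by 0.72 ± 0.13 (adjusted p = 4.72e-05). Its dimmer probe sets gave −0.04 ± 0.20 and −0.40 ± 0.17, and their mean with the first gave 0.09 (adjusted p = 0.406), which ends the call. Mrpl24, also a protein near the tunnel exit, was higher by 0.60 ± 0.06 in 18 of 18 animals (adjusted p = 6.58e-09), and Mrps28 by 0.56 ± 0.09 in 17 of 18 (adjusted p = 5.70e-06). Mrpl58, a peptidyl-tRNA hydrolase that frees stalled ribosomes, was higher by 0.55 ± 0.06 in 18 of 18 animals (adjusted p = 1.72e-08). Its second probe set went the other way, at −1.89 ± 0.12, and the mean of both was −0.67 (adjusted p = 1.71e-08), so the direction of Mrpl58 rests on the probe set taken.

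The other 14 members called higher lay between 0.10 (Mrpl33) and 0.54 (Mrpl40), among them Mrps7 (0.48 ± 0.06, 18 of 18 animals), Mrpl14 (0.46 ± 0.08) and Mrps6 (0.40 ± 0.05).

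On the low side, Mrpl16 encodes a core protein of the large subunit. It ran 10.22, 10.66 and 10.92 log2 in the bound and 11.24, 11.48 and 11.75 in the unbound arrays. No bound array reached the lowest unbound one, and the difference was −0.84 ± 0.05 (adjusted p = 6.42e-13). Mrps27, a small-subunit protein of the RNA-binding pentatricopeptide repeat kind, ran 7.38, 7.95 and 8.46 in the bound and 8.03, 8.68 and 9.29 in the unbound arrays. These ranges overlap, the bound array was lower in 16 of 18 animals, and the difference was −0.72 ± 0.11 (adjusted p = 3.91e-06). Mrps18a was lower, at −0.71 ± 0.06 in 18 of 18 animals (adjusted p = 5.81e-10). Mrps35 (−0.57 ± 0.10, 17 of 18), Mrps2 (−0.54 ± 0.08, 17 of 18) and Mrpl44 (−0.53 ± 0.06, 18 of 18), a large-subunit protein with a ribonuclease III-like fold, followed. The other 25 members called lower lay between −0.53 (Mrps26) and −0.17 (Mrpl51).

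The 3 relatives of bacterial protein S18 stood on different sides: Mrps18a fell below, Mrps18b was 0.22 ± 0.06 higher (adjusted p = 0.00341) and Mrps18c was not called (−0.01 ± 0.06, adjusted p = 0.929). The stalk of the large subunit recruits translation factors. Of its proteins, Mrpl12 was lower, at −0.31 ± 0.07 (adjusted p = 0.000659), Mrpl11, at the base of the stalk, was not called (−0.11 ± 0.06, adjusted p = 0.101), and neither was Mrpl10 (0.21 ± 0.15, adjusted p = 0.201). Centred on the median gene, Mrpl12 stood at 0.06, Mrpl11 at 0.25 and Mrps18c at 0.36, so their direction depends on the scaling. Mrps30 (−0.08 ± 0.08) and Mrps36 (−0.11 ± 0.09) were not called either and stood at 0.28 and 0.26 after centring.

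Choosing the brightest probe set bears on the median. Of 66 further probe sets of 36 members that reached the filter, 51 lay below the chosen probe set of their gene in bound minus unbound and 15 above. Their median was −0.41, where the chosen ones of the same genes had −0.22. For genes that were called, 39 of 45 further probe sets had the sign of the chosen one. With the mean of all probe sets, 19 members were higher and 41 lower, and 50 of 76 lay above the median gene. The shares of all genes called higher and lower with that mean are not given.

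Many members share a start region with a gene on the other strand. Of 67 members in the RefSeq annotation, 25 (37.3%) had a divergent neighbour starting within 1000 bases, against 18.6% of tested genes, and 23 of these members had a tested neighbour. The neighbour was higher for 6 members, lower for 15 and not called for 2. Mrpl46 and Mrps11 are each other's neighbour, so this pair is counted from both sides. A member and its neighbour were called in the same direction in 6 pairs and in opposite directions in 6. Mrps12 starts 147 bases from Sars2, the mitochondrial seryl-tRNA synthetase, which was also higher (0.46 ± 0.12, adjusted p = 0.00162). Mrps27 starts 108 bases from Ptcd2, another mitochondrial protein gene, which was also lower (−0.81 ± 0.08), and Mrpl43 starts 116 bases from Twnk, the mitochondrial DNA helicase, both being higher (0.41 and 0.29). Mrps7 (0.48) and Gga3 (−0.91), 224 bases apart, and Mrpl40 (0.54) and Hira (−0.56), 113 bases apart, were called in opposite directions.

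Genes that work with the mitochondrial ribosome were set beside it. Of 80 oxidative phosphorylation subunits, 68 were lower in the bound arrays and 6 higher (median −0.29), and of 42 cytosolic ribosomal proteins 34 were lower and 4 higher (median −0.38). Both medians lie near that of all genes, while more of their genes were called lower than the 58.1% of all genes. The mitoribosome assembly and rRNA modification list had 7 higher and 7 lower of 24 (median −0.04), led by the pseudouridine synthase Trub2 (0.82 ± 0.06), the assembly GTPase Eral1 (0.72 ± 0.08) and, on the low side, Ngrn (−1.14 ± 0.09). Of 16 mitochondrial tRNA synthetases 1 was higher and 6 lower, lowest the glutamyl enzyme Ears2 (−1.44 ± 0.20). Of 9 translation factors, the initiation factor Mtif3 was higher (0.33 ± 0.09) while Mtif2 (−0.68 ± 0.09) and Gfm2 (−0.62 ± 0.20) were lower.

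Of 4 mitochondrial ribosome proteins that carry no Mrp symbol, Chchd1 was higher (0.37 ± 0.06) and Dap3 (−0.35 ± 0.05) and Gadd45gip1 (−0.30 ± 0.09) were lower, again on both sides. Of 14 genes of mitochondrial DNA transcription and RNA stability 4 were higher, among them Polg2, a subunit of the mitochondrial DNA polymerase (1.78 ± 0.14), and the RNA polymerase gene Polrmt (0.91 ± 0.13). In the same list 5 were lower, with Mterf2 (−0.75 ± 0.11) and Tfb2m (−0.51 ± 0.12) the lowest. Of the 9 biogenesis regulators 3 were higher and 4 lower (median 0.06): Nrf1 was 0.97 ± 0.08 higher in the bound arrays, and the coactivators Ppargc1a and Ppargc1b were lower, at −1.68 ± 0.09 and −1.21 ± 0.18.

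**Figure D2:**
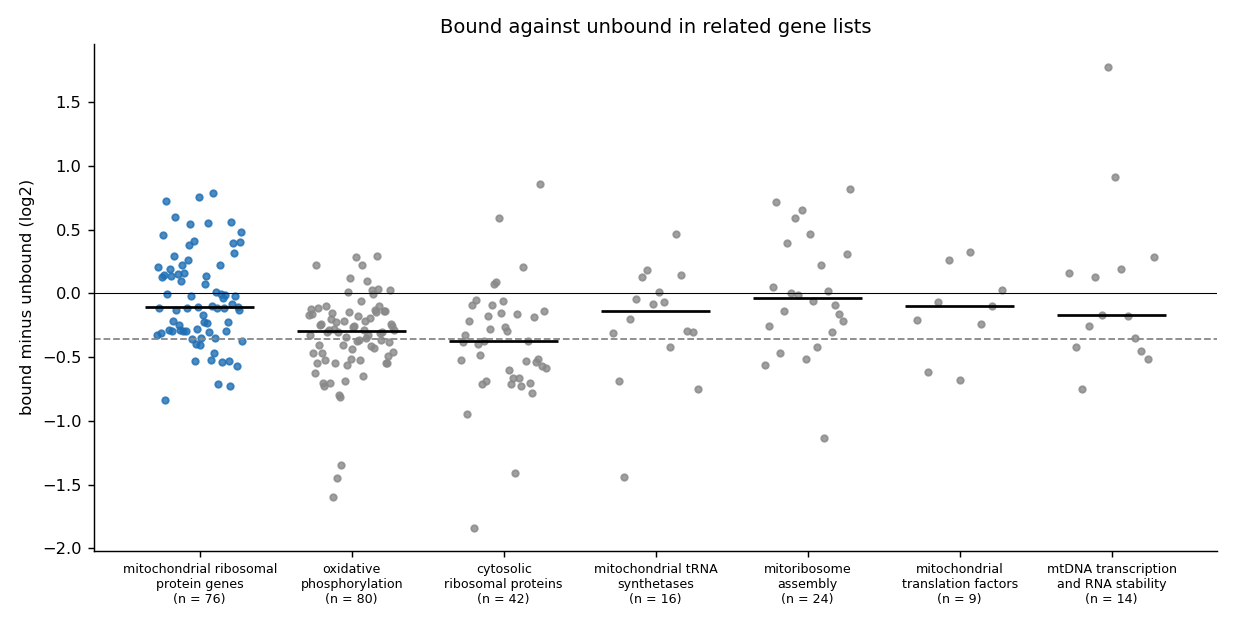
Bound minus unbound difference in log2 (y axis) of every tested gene in the members and 6 related lists (x axis), with the median of each list as a bar and the median of all genes as a dashed line. The bars lie at −0.11 for the members, −0.29 for oxidative phosphorylation and −0.38 for cytosolic ribosomal proteins.

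Between sleep, waking and sleep deprivation the set as a whole moved little, and few members were called. The members' median minus the median of all genes was 1.83 to 2.15 log2 on the bound sleep arrays, 1.78 to 2.09 in waking and 1.92 to 2.20 in sleep deprivation. On the unbound arrays it was 1.60 to 1.81, 1.56 to 1.68 and 1.65 to 1.79. Only differences between arrays are read from these values, since signals of different probe sets are not comparable. The states overlap in both fractions, and in each state every bound array lies above every unbound one. The members' own medians overlap between the fractions, at 9.53 to 10.01 log2 on bound and 9.68 to 10.02 on unbound arrays. The median gene does not, at 7.75 to 7.88 and 8.07 to 8.24. The gap between the fractions thus depends on the scaling, as described above.

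**Figure D3:**
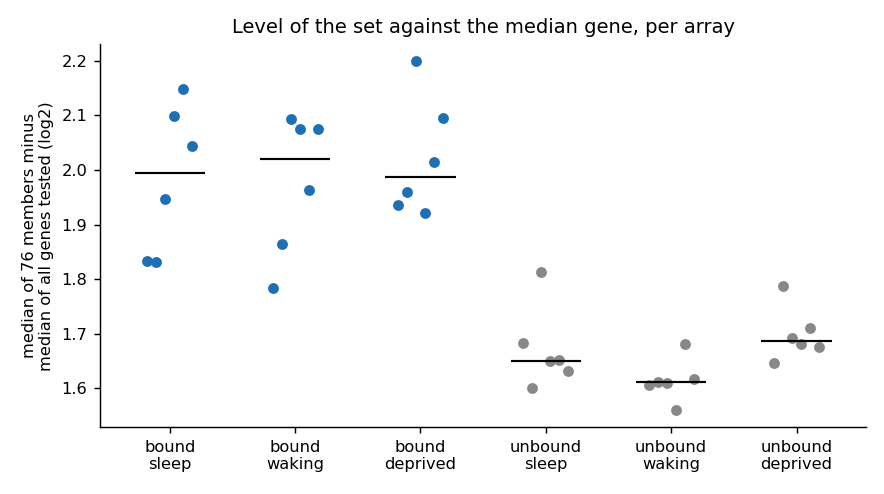
Median of the 76 members minus the median of all genes tested, in log2 (y axis), on each of the 36 arrays by fraction and state (x axis), with the group median as a bar. Bound arrays lie between 1.78 and 2.20 and unbound arrays between 1.56 and 1.81, and the 3 states overlap in both fractions.

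In oligodendrocyte messages, waking against sleep called 1 of 76 members, Mrpl43, which was higher, where 9.47% of all genes were called and 4.68% were higher. The groups did not overlap for 1 member (Mrps5, not called), against 5.68% of all genes. The members' median difference was −0.05 and that of all genes −0.01. Mrpl43, a mitochondria-specific protein of the large subunit, had 9.65, 10.07 and 10.47 log2 (lowest, median and highest of 6) in sleep, 10.29, 10.56 and 10.89 in waking and 10.19, 10.55 and 10.87 in sleep deprivation. Sleep arrays lie low and the other states overlap each other almost fully. Mrpl43 was higher by 0.55 ± 0.15 in waking (adjusted p = 0.0270) and by 0.49 ± 0.15 in sleep deprivation (adjusted p = 0.0367), 2 comparisons that use the same sleep arrays. Without the animals that sex-linked genes set apart these gave 0.43 (adjusted p = 0.162) and 0.47 (adjusted p = 0.0625).

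Sleep deprivation against sleep called 8 members in the bound arrays, 3 higher and 5 lower, or 10.5%. Of all genes 14.4% were called, 7.53% higher and 6.87% lower. The groups did not overlap for 4 members, against 7.33% of all genes. The medians were −0.00 for the members and −0.01 for all genes. After centring 4 members were higher and 4 lower: Mrpl10 lost its call, and Mrps25 gained one (0.38, adjusted p = 0.0326), named here after its values were seen. Mrpl38, a protein of the central protuberance, had 6.57, 6.88 and 7.18 log2 in bound sleep and 7.21, 7.51 and 7.52 in bound sleep deprived arrays. These groups do not overlap, and the difference was 0.56 ± 0.18 (adjusted p = 0.0374). Its further probe sets gave 0.15 ± 0.11 and 0.70 ± 0.35, and the mean of all of them, 0.47, was not called. Mrpl41, specific to mitochondria, had 11.40, 11.51 and 11.63 in sleep, 11.13, 11.44 and 11.56 in waking and 11.56, 11.76 and 12.08 in sleep deprivation. Sleep deprived arrays lie highest with a slight overlap, and Mrpl41 was higher by 0.30 ± 0.09 against sleep (adjusted p = 0.0273) and by 0.40 ± 0.09 against waking (adjusted p = 0.0118). Its second probe set gave 0.36 ± 0.12 and 0.34 ± 0.12. Without the 3 animals the values were 0.26 (adjusted p = 0.0747) and 0.40 (adjusted p = 0.0544).

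Mrpl11 and Mrpl10, proteins of the stalk region, were among the members that fell in sleep deprived oligodendrocyte messages. Mrpl11 had 11.29, 11.62 and 11.75 log2 in bound sleep, 10.95, 11.28 and 11.95 in waking and 10.68, 10.96 and 11.14 in sleep deprivation. Every sleep deprived array lies below every sleep array, and the fall was −0.61 ± 0.14 (adjusted p = 0.00517). A second probe set of Mrpl11 gave −0.59 ± 0.13 and the third −0.18 ± 0.16. Mrpl10 had 9.32, 9.72 and 10.11 in sleep and 8.64, 9.25 and 9.83 in sleep deprivation, which overlap. Its difference of −0.51 ± 0.17 was close to the threshold (adjusted p = 0.0496) and was −0.49 after centring (adjusted p = 0.0636) and −0.40 without the 3 animals (adjusted p = 0.124). Mrpl12 was not called (−0.24 ± 0.16, adjusted p = 0.364).

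Mrps34, a mitochondria-specific protein of the small subunit, had 8.81, 9.07 and 9.34 in bound sleep and 8.46, 8.57 and 8.99 in bound sleep deprived arrays, which overlap slightly. It fell by 0.42 ± 0.13 (adjusted p = 0.0376). Mrpl58 had 11.12, 11.19 and 11.38 in sleep and 10.65, 10.79 and 10.98 in sleep deprivation, with no overlap. It fell by 0.41 ± 0.09 (adjusted p = 0.00397), but its second probe set gave 0.15 ± 0.26 and the mean of both −0.13, which was not called. Mrpl16 fell by 0.32 ± 0.09 (adjusted p = 0.0210). Sleep deprivation against waking called Mrpl41 alone in the bound arrays, where 5.01% of all genes were called and 2.69% were higher. The groups overlapped for every member, while they did not for 3.76% of all genes.

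**Figure D4:**
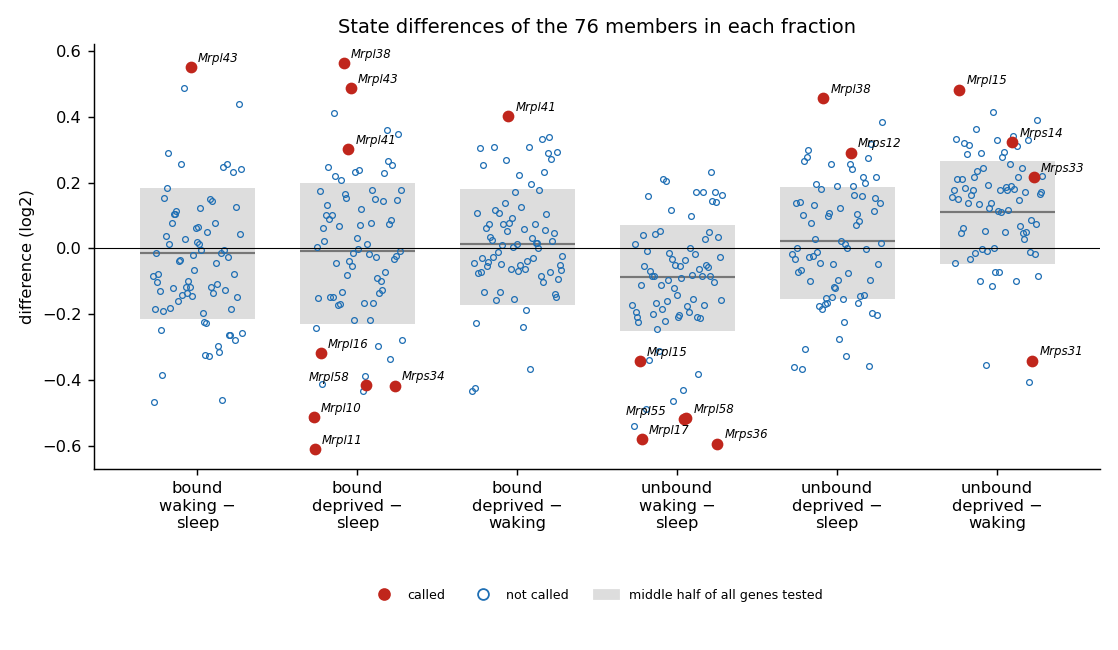
Difference between states in log2 (y axis) of the 76 members in each of 6 comparisons (x axis), with called members filled and named, and the interquartile range of all genes as a grey box with their median as a line. Most members lie inside or near the box, and between 1 and 8 members are called per comparison.

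For 2 of these members the change itself differed between the fractions. In unbound arrays Mrpl11 had 11.24, 11.41 and 11.61 log2 in sleep and 11.22, 11.39 and 11.50 in sleep deprivation, almost the same range. The bound change minus the unbound change was −0.58 ± 0.15 (adjusted p = 0.0266), or −0.57 without the 3 animals (adjusted p = 0.0592). Further probe sets of Mrpl11 gave −0.55 ± 0.16 and −0.22 ± 0.17 for it. Mrps34 had 8.55, 8.75 and 8.90 in unbound sleep and 8.71, 8.93 and 9.04 in unbound sleep deprived arrays, and its fraction difference was −0.57 ± 0.16 (adjusted p = 0.0428), or −0.52 after centring (adjusted p = 0.0619). Among all genes, 6.24% were called in this comparison and 3.21% were lower. The fraction differences of waking against sleep and of sleep deprivation against waking called 0 members by limma, where 5.34% and 4.27% of all genes were called. At an unadjusted p under 0.05 they held 7 and 12 members, and with the mean of all probe sets 1 and 4 members were called. Shares of all genes by these 2 rules are not given, so these counts are not read as results about the members.

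In the unbound fraction, waking against sleep called 5 members, all lower (6.58%, against 7.21% of all genes, of which 5.72% were lower and 1.49% higher). The groups did not overlap for 2 members, against 4.45% of all genes. The median was −0.09 both for the members and for all genes. Mrps36 had 9.96, 10.36 and 10.51 log2 in sleep and 9.13, 9.82 and 10.01 in waking, which overlap slightly, and fell by 0.59 ± 0.13 (adjusted p = 0.00963). Mrpl55 had 8.52, 8.74 and 8.88 in sleep and 8.13, 8.21 and 8.30 in waking. The 2 groups are apart, and the fall was −0.52 ± 0.11 (adjusted p = 0.00633). Mrpl58 had 10.34, 10.76 and 11.01 in sleep and 10.02, 10.27 and 10.39 in waking, which overlap slightly, and fell by 0.52 ± 0.11 (adjusted p = 0.00858). The second probe set of Mrpl58 gave −0.10 ± 0.12.

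Mrpl17 had 10.12, 10.57 and 10.74 in unbound sleep and 9.46, 10.01 and 10.44 in unbound waking arrays, with overlap, and fell by 0.58 ± 0.15 (adjusted p = 0.0211), or −0.50 without the 3 animals (adjusted p = 0.101). Mrpl15, a core protein of the large subunit, had 9.78, 9.83 and 10.11 in sleep, 9.29, 9.54 and 9.77 in waking and 9.84, 10.08 and 10.16 in sleep deprivation. Waking arrays lie below all others, by −0.34 ± 0.09 against sleep (adjusted p = 0.0303). Since the median gene was also lower on unbound waking arrays, the centred test is given beside it: Mrps36, Mrpl55 and Mrpl58 kept their call there, while Mrpl17 (−0.49, adjusted p = 0.0525) and Mrpl15 (−0.25, adjusted p = 0.124) did not. For waking against sleep, the dimmer probe sets of Mrpl17 gave −0.14 ± 0.48 and −0.21 ± 0.35. Bright further probe sets of Mrpl15 gave −0.32 ± 0.15, −0.05 ± 0.11 and −0.17 ± 0.11, and a dim one gave −0.78 ± 0.46.

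Sleep deprivation against sleep called 2 members in the unbound arrays, both higher, where 7.82% of all genes were called and 4.65% were higher. The groups did not overlap for 2 members, against 5.14% of all genes. Mrpl38 had 6.71, 7.18 and 7.39 log2 in sleep, 7.17, 7.34 and 7.50 in waking and 7.39, 7.58 and 7.76 in sleep deprivation. The sleep and sleep deprived groups meet without overlapping, and Mrpl38 rose by 0.46 ± 0.13 (adjusted p = 0.0422). Its 2 other probe sets both gave −0.04. Mrps12 had 9.71, 9.89 and 10.06 in sleep and 10.02, 10.18 and 10.31 in sleep deprivation, which overlap slightly, and rose by 0.29 ± 0.08 (adjusted p = 0.0360). Neither was called after centring (adjusted p = 0.0623 and 0.0532) or without the 3 animals (adjusted p = 0.0763 and 0.0768).

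Sleep deprivation against waking gave 60 of 76 members a positive difference in the unbound arrays, with a median of 0.16 against 0.11 for all genes, but called 3 higher and 1 lower. Most genes rose here, with a lower quartile of −0.05 over all genes, and 49 of 76 members lay above the median gene. The count of 60 is therefore not read as a rise of the set. Of all genes 9.94% were called, 8.45% higher and 1.49% lower, and the groups did not overlap for 2 members, against 5.45% of all genes. Mrpl15 rose by 0.48 ± 0.09 (adjusted p = 0.00383), with no overlap between the groups given above. Its bright further probe sets gave 0.38 ± 0.15, 0.24 ± 0.11 and 0.46 ± 0.11, and a dim one gave −0.52 ± 0.46. The mean of all its probe sets, those under the filter included, was −0.09 (adjusted p = 0.682), turned in direction and not called. Mrps14, a core protein of the small subunit, had 10.00, 10.43 and 10.54 in waking and 10.51, 10.66 and 11.06 in sleep deprivation, with slight overlap, and rose by 0.32 ± 0.10 (adjusted p = 0.0462). Mrps33 had 11.77, 11.92 and 11.99 in waking and 12.02, 12.08 and 12.33 in sleep deprivation, with none, and rose by 0.22 ± 0.06 (adjusted p = 0.0292).

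Mrps31 was the member that fell: it had 9.44, 9.58 and 9.86 in unbound waking and 9.17, 9.19 and 9.47 in unbound sleep deprived arrays, which overlap slightly, and the difference was −0.34 ± 0.10 (adjusted p = 0.0406). A dim second probe set of Mrps31 gave 0.44 ± 0.24, and the mean of both was 0.05 (adjusted p = 0.883), turned in direction and not called. After centring, Mrpl15 (0.37, adjusted p = 0.0274) and Mrps31 (−0.45, adjusted p = 0.0197) remained called, while Mrps14 (adjusted p = 0.232) and Mrps33 (adjusted p = 0.326) did not. Without the 3 animals only Mrpl15 was called (0.44, adjusted p = 0.0208).

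**Figure D5:**
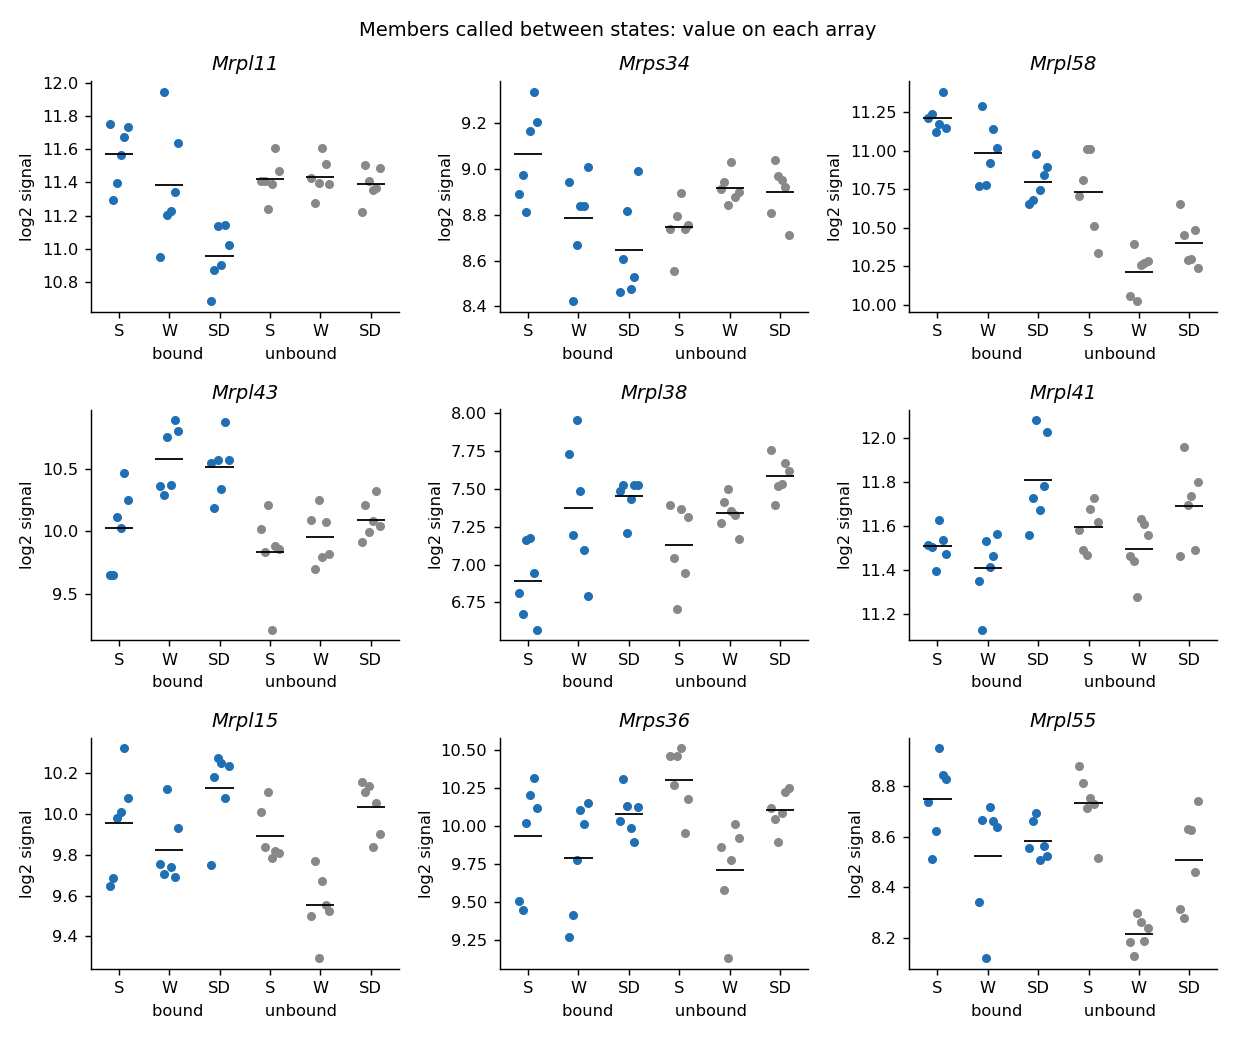
Log2 signal (y axis) on each array for 9 members called between states, by state (x axis: S sleep, W waking, SD sleep deprivation) in the bound (blue) and unbound (grey) fraction, with the group mean of 6 animals as a bar. Bound sleep deprived arrays of Mrpl11 (10.68 to 11.14) lie below the bound sleep arrays (11.29 to 11.75), while the unbound arrays overlap.

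In this last comparison, 2 related lists were called in larger numbers. Of 42 cytosolic ribosomal proteins 16 were higher and 1 lower, and of 80 oxidative phosphorylation subunits 23 were higher and 0 lower by limma (48 at an unadjusted p under 0.05), against 3 and 1 of the 76 members and 8.45% of all genes higher. The medians were 0.14, 0.12 and 0.16, near the 0.11 of all genes, and after centring 2 cytosolic ribosomal proteins and 1 oxidative phosphorylation subunit were higher. The other lists had few calls: mitoribosome assembly 1 higher and 1 lower of 24, tRNA synthetases 2 higher of 16 and biogenesis regulators 1 higher of 9. By limma 0 of 4 mitoribosome proteins without an Mrp symbol, 0 of 9 translation factors and 0 of 14 genes of mitochondrial DNA transcription were called, with 0, 2 and 2 at an unadjusted p under 0.05. In the bound arrays the same comparison called 0 of 42 by limma (1 at an unadjusted p under 0.05) and 1 of 80.

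The spread between animals of a group is given beside that of all genes. The standard deviation within groups had a median of 0.25 log2 over the members in the bound and 0.20 in the unbound arrays, where all genes tested had 0.29 and 0.27. It was larger in the bound than in the unbound arrays for 53 of 76 members. In the bound arrays Mrpl17 (0.50) and Mrpl54 (0.48) varied most and Mrps33 (0.07) least.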

How the data were processed

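RNA of the bound and unbound fractions of each animal was measured on 36 mouse expression arrays. The deposited log2 signals, 1 for each probe set, are RMA values per the submitters' processing notes, which name neither its version nor the arrays normalized together. Per the labels, bound and unbound RNA were purified with different kits. The values were used without further normalization. Of 45101 probe sets, 34945 named 1 gene by the platform annotation, 932 several and 9160 none, and 64 were array controls. A lookup of the members' 156 probe sets by Entrez identifier changed 0 symbols.

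Genes entered the tests if their mean in either fraction was no lower than that fraction's 40th percentile over the probe sets, which was 4.47 log2 in bound and 5.18 in unbound arrays. State contrasts came from a group-means model of the 18 arrays of a fraction, and bound against unbound and fraction differences from the per-animal difference, in limma 3.58.1 (R 4.3.3) with an intensity trend, checked on simulated data. Tables were read with the R package data.table in version 1.17.8. Promoters and figures were handled in Python 3.11.15 (numpy 2.4.6, pandas 2.3.3, matplotlib 3.10.9). The pairing of the fractions comes from the design: each animal gave both. An animal's 2 arrays deviated from their groups with correlations of −0.0032 to 0.0848 (on average 0.0458, and −0.0026 between different animals).

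Members, lists and tests were chosen with earlier results of these data known. Named members are the 6 highest and 6 lowest called between fractions, up to 4 called in each direction between states and 3 for fraction differences, 9 chosen for a known role, and up to 2 called genes in each direction of a list. Mrpl10 between the fractions, Mrpl12 and Mrpl16 between states, and members given as ends of a range or beside a neighbour, were added after their values were seen. Alternatives were quantile normalization, centring, other filters, the mean of probe sets, no trend, other models, replicate blocks and leaving out 3 animals. The promoter table and neighbours are RefSeq's (GRCm38.p6), while the array names are the platform's. The animals were separate per the labels, and their number limits the precision of every value.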

Additional observations from a re-analysis of the deposited data

Results flagged for a closer look

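In 18 of 174 groups of 6 arrays, 1 array lay far from the other 5 for a member named above. The rule flags about 1 in 20 groups of independent, normally distributed values. Since the members share arrays and many were named for their values, no excess is read from this count. In the unbound sleep group, replicate 4 had Mrpl48 at 9.94 log2 (others 10.92 to 11.08) and Mrpl43 at 9.22 (others 9.84 to 10.21), and replicate 3 had Mrpl10 at 10.98 (others 8.65 to 9.44). In the unbound waking group, replicate 3, 1 of the animals that sex-linked genes set apart, had Mrpl48 at 10.23 (others 10.69 to 10.86), Mrpl24 at 9.82 (others 10.17 to 10.36) and Mrps35 at 9.65 (others 8.89 to 9.07). In the same group, replicate 4 had Mrps18b at 10.00 (others 10.64 to 10.89) and replicate 1 had Mrps30 at 8.40 (others 9.05 to 9.38).

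In the unbound sleep deprived group, replicate 11 had Mrpl24 at 10.66 (others 10.22 to 10.34), replicate 8 had Mrps14 at 11.06 (others 10.51 to 10.71), replicate 6 had Mrps33 at 12.33 (others 12.02 to 12.12) and replicate 10 had Mrps18b at 10.53 (others 10.85 to 10.95). In bound sleep, replicate 4 had Mrpl17 at 12.52 (others 10.59 to 11.29) and replicate 6 had Mrps2 at 10.33 (others 9.87 to 9.99). In bound sleep deprivation, replicate 8 had Mrpl38 at 7.21 (others 7.43 to 7.52), replicate 6 had Mrpl15 at 9.75 (others 10.08 to 10.27) and Mrps31 at 9.64 (others 9.96 to 10.04), and replicate 10 had Mrps33 at 12.46 (others 12.27 to 12.31).

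The change from sleep to sleep deprivation differed between the fractions for Mrpl11 (−0.58 log2, bound minus unbound change) and Mrps34 (−0.57) by the test of the difference itself.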

How the results depend on the processing

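Bound against unbound gave 45 to 60 called members under the 9 alternatives run on it (51 in the main analysis), but the split of higher and lower turned under quantile normalization over all 36 arrays (34 and 11) and centring (47 and 7). Apart from centring, shares of all genes called under the alternatives are not given, so these counts are not read as results about the members. Without the animal as a replicate block the counts were the same 51 (20 and 31). Counts between states are small and moved often. Quantile normalization over all arrays and within fractions gave 2 members for bound sleep deprivation against waking (1 in the main analysis), 1 for unbound sleep deprivation against sleep (2) and 2 for unbound sleep deprivation against waking (4). Centring gave 3 for unbound waking against sleep (5), 0 for unbound sleep deprivation against sleep and 2 for unbound sleep deprivation against waking. Without a filter, bound and unbound sleep deprivation against waking gave 2 and 8, and its fraction difference 1 (0). The stricter filter gave 1 for unbound sleep deprivation against sleep and 1 for its fraction difference (2). The mean of probe sets gave 2 for bound waking against sleep (1), 2 for bound sleep deprivation against waking (both lower), 6 and 11 for unbound sleep deprivation against sleep and against waking, and 1, 4 and 4 for the fraction differences of waking against sleep, sleep deprivation against sleep and sleep deprivation against waking. Without the 3 animals that sex-linked genes set apart, which leaves 15, bound waking against sleep, bound sleep deprivation against waking and unbound sleep deprivation against sleep gave 0, and unbound sleep deprivation against waking and the fraction difference of sleep deprivation against sleep gave 1 each. All 36 arrays in 1 model gave 2 for bound sleep deprivation against waking and 1 for unbound sleep deprivation against sleep. Sleep and waking share replicate numbers. Over all genes, same-numbered animals' deviations correlated by −0.0009 to 0.0868 (bound) and −0.0050 to 0.10 (unbound). The deviations of an animal's own bound and unbound arrays correlated as weakly (−0.0032 to 0.0848). These values therefore cannot decide whether the numbers mark pairs, and the main analysis did not use the numbers. For the members alone, replicates 1 and 2 stood closest to the median gene in both bound sleep (1.83 and 1.83 above it) and bound waking (1.78 and 1.86). With the number as a replicate block, bound waking against sleep gave 4 (1 higher, 3 lower) and unbound waking against sleep 1. Of 351 values of named members under alternatives, 283 kept direction and call, 56 lost the call and 1 gained it, and 11 reversed. With the mean of probe sets Mrpl58 between fractions was −0.67, and Mrpl15 and Mrps31 in unbound sleep deprivation against waking were −0.095 and 0.047. Between fractions, centring gave 0.057 for Mrpl12, 0.25 for Mrpl11, 0.36 for Mrps18c, 0.28 for Mrps30 and 0.26 for Mrps36, and quantile normalization over all arrays gave 0.073 for Mrps18c, 0.18 for Mrps30 and 0.088 for Mrps36. The cause of these changes was not tested.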

Other observations

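Genes around the mitochondrial ribosome included some that moved further between states than any member, though Yy1, also given here, did not. Aars2, the mitochondrial alanyl-tRNA synthetase, was higher in waking than in sleep in the bound arrays by 1.08 ± 0.13 log2 (adjusted p = 5.76e-05) and lower in the unbound arrays at −1.04 ± 0.18 (adjusted p = 0.00185), a fraction difference of 2.12 ± 0.21 (adjusted p = 1.76e-05). Sleep deprivation against sleep, which uses the same sleep arrays, gave 0.51 ± 0.13 in the bound and −0.64 ± 0.18 in the unbound arrays. Mpv17l2, a mitoribosome assembly protein, was lower in bound waking than in bound sleep at −0.78 ± 0.16 (adjusted p = 0.00549), and Polg2 was lower in bound sleep deprivation than in sleep at −0.93 ± 0.18 (adjusted p = 0.00186). Of 9 biogenesis regulators, Yy1 was higher in bound waking than in sleep by 0.56 ± 0.07 (adjusted p = 0.000217) and Esrra lower at −0.85 ± 0.18 (adjusted p = 0.00631). Genes of this paragraph come from lists chosen with earlier results known, and they were picked here after their values were seen.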
